A study of Mus musculus with 10 samples.

Results

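A set of 10 genes tied to innate lymphoid and natural killer (NK) cell development were followed across sorted progenitors of mouse bone marrow: Il18r1, Il17rb, Klrk1, Tox, Ets1, Zbtb16, Nfil3, Eomes, Tbx21 and Gzmc. They were taken by gene symbol, and all 10 were measured among the 23152 genes of the table. The study sorted 4 groups from adult C57BL/6 mice and measured total RNA on Affymetrix arrays. LMPP-s (n = 3 arrays) are lymphoid-primed multipotent progenitors, sorted as Lin- cKit high, Sca-1 high, Flt3 high cells without CD127, the IL-7 receptor alpha chain. LMPP+s (n = 3) have the same surface and carry CD127. Ly6D-CLPs (n = 2) and Ly6D+CLPs (n = 2) are common lymphoid progenitors, sorted as Lin- cells with CD127 and high Flt3 in which cKit and Sca-1 are low, and were divided by the surface protein Ly6D. No group was treated or carried an engineered allele, per the labels. The CLP samples were registered in a separate block of sample numbers from the LMPP samples; the labels give no array date, and any difference between those blocks cannot be told apart from CLP against LMPP in the 4 comparisons across them. Whether the arrays of a group came from separate animals or sorts is not stated, and a p-value here covers the spread among these arrays, which may be technical.

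Innate lymphoid cells (ILCs) and NK cells are lymphocytes without rearranged antigen receptors. They arise from lymphoid progenitors through stages that depend on the nuclear factors Nfil3, Tox and Ets1. PLZF, encoded by Zbtb16, marks ILC precursors. NK cells and their closest ILC relatives then use the T-box factors Eomes and T-bet (Tbx21). Receptors for cytokines such as IL-18 and IL-25 and activating receptors such as NKG2D (Klrk1) mark or drive the cells that follow, and granzymes are the proteases of their killing granules.

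A gene value is the mean of the authors' log2 signals over the probe sets that name that gene alone. A value of 4.45, the 95th percentile of 1426 sensory receptor genes that these cells are not known to use, served as a limit for low signal. Where the lower group mean lay under it, the limit took its place in the fold, which is then a lower bound ("at least"). Differences were tested with limma over all genes, and a gene was called at an adjusted p under 0.05. A value set by fewer expressing cells and one set by less RNA in each cell cannot be told apart in sorted bulk RNA.

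Of the 10 genes, 6 differed somewhere among the 4 groups by limma's F test (Il18r1, Tox, Ets1, Klrk1, Il17rb and Gzmc), where 9.38% of all genes were called. Between LMPP+s and LMPP-s 4 were called, where 1.47% of all genes were: 3 were higher (0.881% of all genes) and 1 lower (0.592% of all genes). Against LMPP+s, 3 were higher in Ly6D-CLPs, where 2.06% of all genes were called, 0.635% higher and 1.42% lower. In Ly6D+CLPs 4 were higher than in LMPP+s, where 4.03% of all genes were called, 1.28% higher and 2.75% lower. Against LMPP-s, 6 were higher in Ly6D-CLPs, where 7.1% of all genes were called, 2.93% higher and 4.17% lower. In Ly6D+CLPs 5 were higher than in LMPP-s, where 10.9% of all genes were called, 3.93% higher and 6.94% lower. In these 4 comparisons of CLPs with LMPPs limma called 0 of the 10 lower, and 1 (Ets1, from LMPP+s to Ly6D-CLPs) was lower at an unadjusted p under 0.05. Between the CLP groups limma called 0 of 10, with 3 at an unadjusted p under 0.05 (Il18r1, Tox and Nfil3), and 0.0993% of all genes were called, 0.0389% higher and 0.0605% lower. The median difference of the 10 genes was 0.24 log2 between the LMPP groups and 0.79 and 0.72 for Ly6D-CLPs and Ly6D+CLPs against LMPP-s, beside medians over all genes of -0.01, -0.003 and 0.02. Comparisons with a group in common share its arrays and are not independent.

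**Figure D1:**
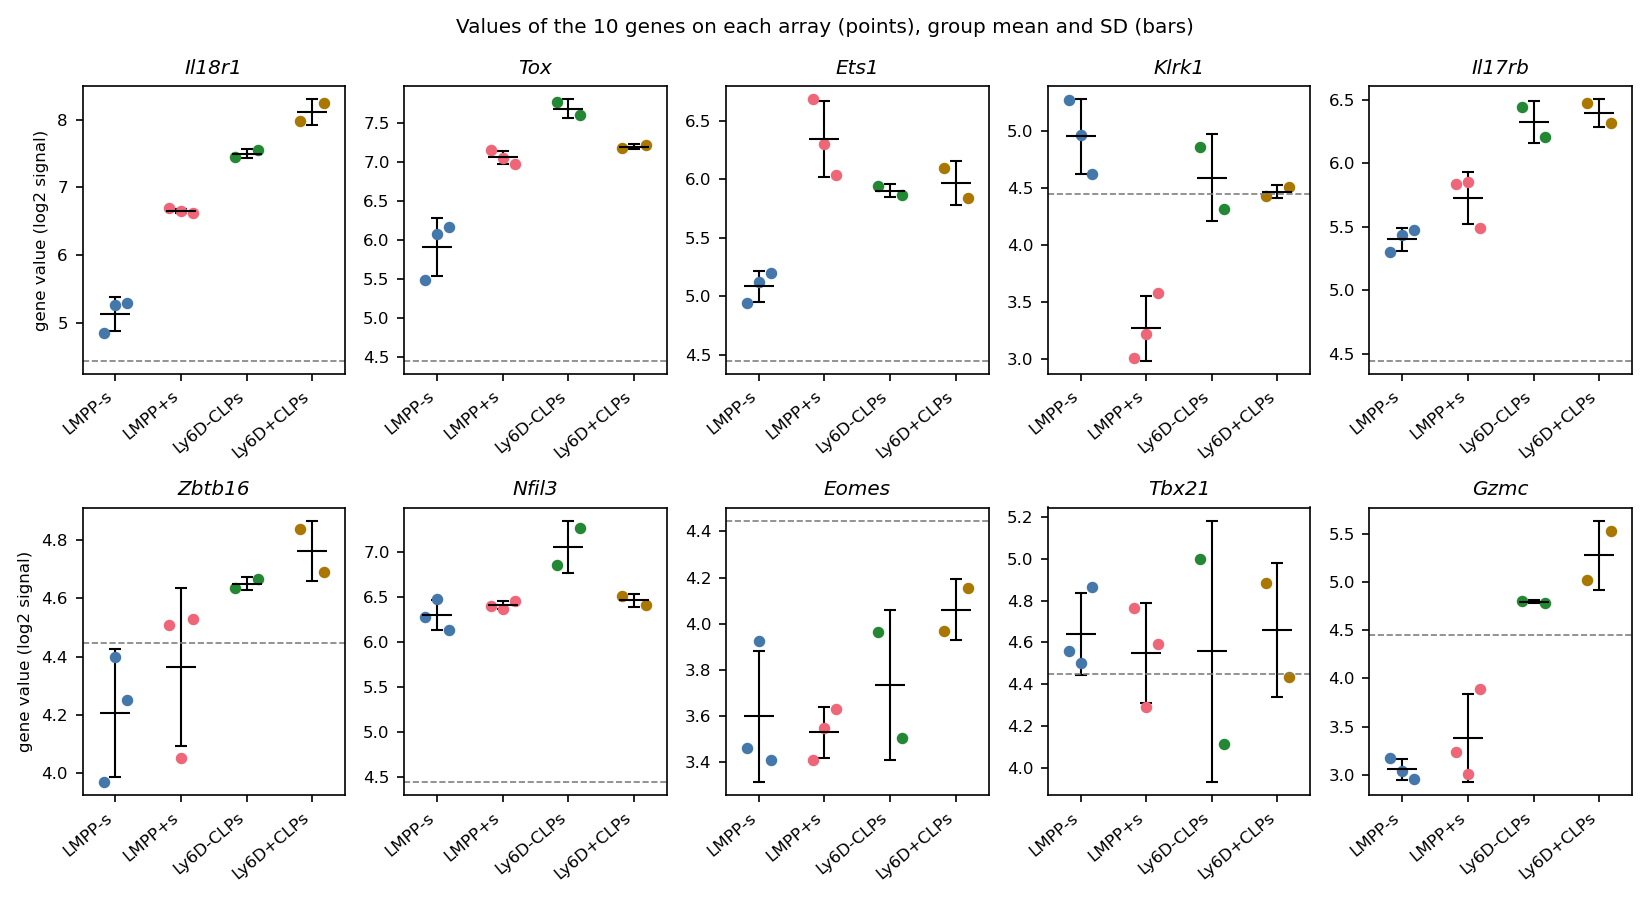
Values (log2 signal, vertical axes with separate ranges) of the 10 genes on each array of the 4 groups, points, with group means and SD as black bars and the low-signal limit of 4.45 as a dashed line. Il18r1 climbs from 5.14 in LMPP-s to 8.11 in Ly6D+CLPs, Klrk1 dips to 3.27 in LMPP+s, and Gzmc lies above the limit in both CLP groups and under it in both LMPP groups.

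**Figure D2:**
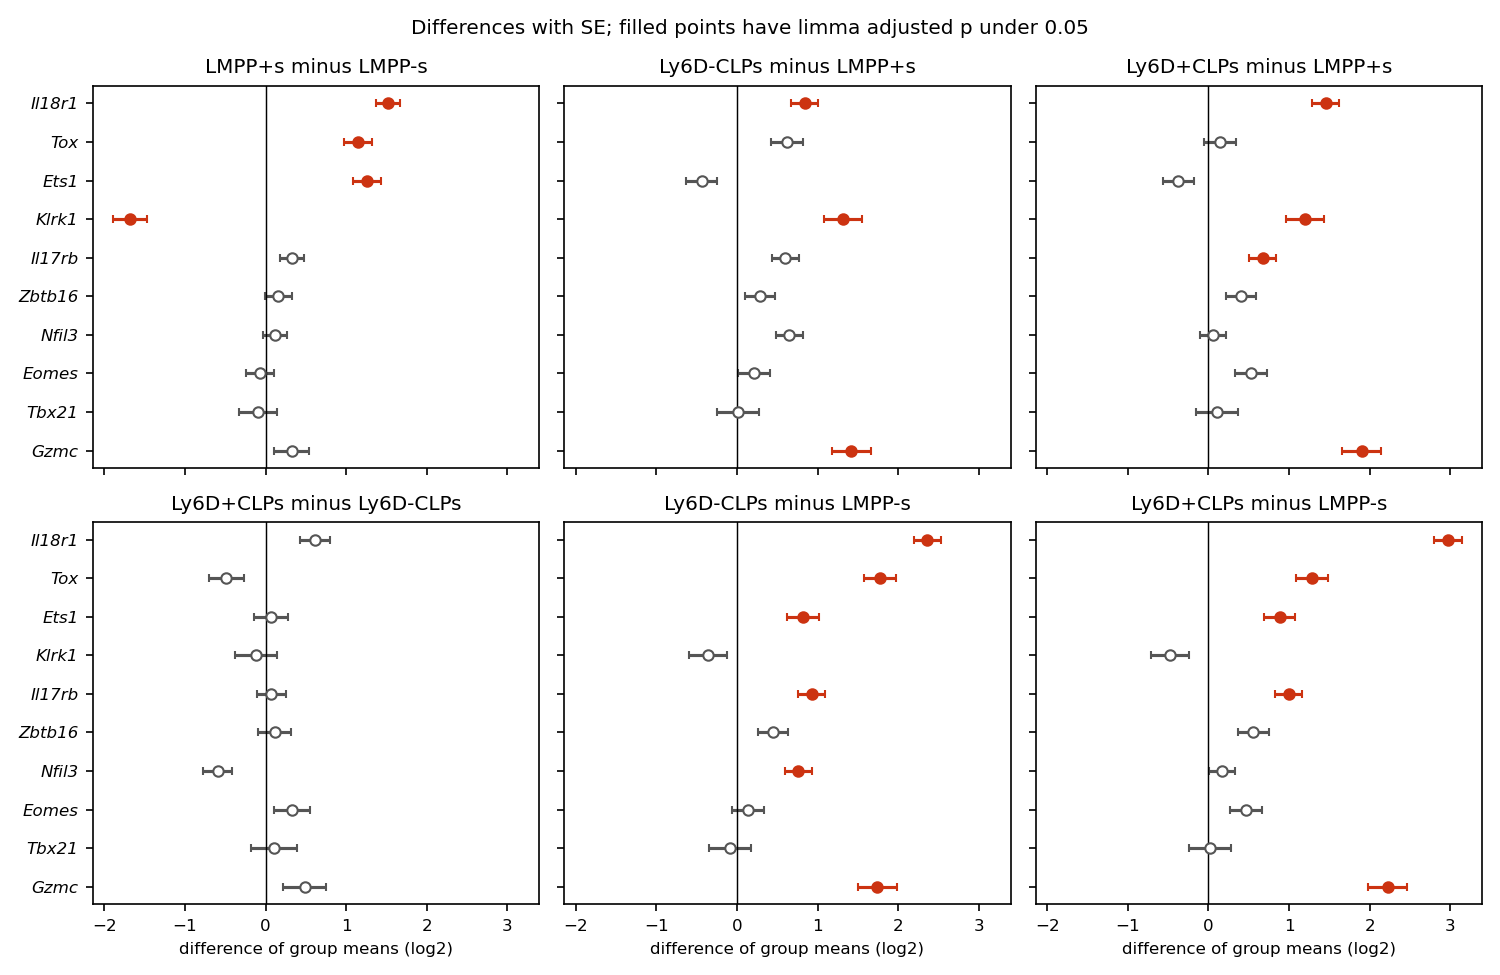
Difference of group means (log2, horizontal axis) with its SE for each of the 10 genes in the 6 comparisons of the 4 groups. Filled red points passed limma's adjusted threshold of 0.05. Il18r1 is filled in all panels but Ly6D+CLPs against Ly6D-CLPs, where no point is filled, and Klrk1 is the point filled on the negative side.

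The bases before the start site are shown for 3 genes that moved in different ways: Il18r1, highest in Ly6D+CLPs; Klrk1, lowest in LMPP+s; and Gzmc, raised in both CLP groups. They are the 250 bases before the most upstream start that RefSeq gives (build GRCm38.p6), 5′ to 3′ on the gene's own strand, and 7 of the 10 genes had such a window in the table. Capitals mark matches to 7 short motifs searched on both strands. The ETS motif was searched as CCGGAA, and the letters for RUNX factors were TGTGGT. T-box factors had GGTGTG, whereas TCF/LEF factors were given the letters CTTTGA. For the GATA family the search used AGATAA, for an E-box it used CAGCTG, and NFIL3 sites were sought as TTANNTAA.
Il18r1 (chr1:40465302-40465551, plus strand): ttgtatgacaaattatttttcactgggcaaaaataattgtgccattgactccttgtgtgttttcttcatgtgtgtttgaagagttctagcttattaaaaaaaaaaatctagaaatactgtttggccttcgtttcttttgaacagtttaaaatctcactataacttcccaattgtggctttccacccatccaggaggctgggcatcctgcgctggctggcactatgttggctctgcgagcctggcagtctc
Klrk1 (chr6:129623865-129624114, minus strand): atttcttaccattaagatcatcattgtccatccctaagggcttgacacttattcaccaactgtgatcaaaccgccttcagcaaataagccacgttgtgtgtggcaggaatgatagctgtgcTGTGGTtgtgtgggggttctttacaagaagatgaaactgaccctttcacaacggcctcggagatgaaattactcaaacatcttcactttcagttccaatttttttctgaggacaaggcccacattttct
Gzmc (chr14:56234658-56234907, minus strand): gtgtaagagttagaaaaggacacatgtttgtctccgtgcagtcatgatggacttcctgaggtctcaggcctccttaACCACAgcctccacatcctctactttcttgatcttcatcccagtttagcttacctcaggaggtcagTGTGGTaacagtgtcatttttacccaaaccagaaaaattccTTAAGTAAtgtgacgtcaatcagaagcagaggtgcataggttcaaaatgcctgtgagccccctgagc
The Il18r1 window held 0 matches, the Klrk1 window 1 RUNX match, and the Gzmc window 2 RUNX matches and 1 NFIL3 match, with no overlaps between matches. Of all 32851 windows of this length, 14% held the RUNX motif and 5.43% the NFIL3 motif. The Il17rb window held 1 T-box match (16.3% of all windows) and the Nfil3 window 1 E-box match (13% of all windows), while those of Eomes and Tbx21 held 0. ETS, TCF/LEF and GATA letters stood in 0 of the 7 windows and in 12%, 13.8% and 9.99% of all windows. A match describes the letters and is no measured binding site.

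Il18r1, which encodes the ligand-binding chain of the IL-18 receptor, rose in steps from LMPP-s to the CLPs. Its values were 4.85, 5.27 and 5.30 in LMPP-s, 6.69, 6.66 and 6.63 in LMPP+s, 7.45 and 7.55 in Ly6D-CLPs, and 7.98 and 8.25 in Ly6D+CLPs. No 2 groups overlapped. LMPP+s exceeded LMPP-s 2.87-fold (log2 difference 1.52, SE 0.15, limma adjusted p = 0.000578). Ly6D-CLPs stood 0.84 log2 above LMPP+s (SE 0.17, limma adjusted p = 0.0337), a call that ended when any of the 5 arrays compared was left out (limma adjusted p from 0.0843 to 0.137). With the brightest of its probe sets in place of their mean this difference was -0.02 log2. Ly6D+CLPs stood 1.46 log2 above LMPP+s (limma adjusted p = 0.00139) and 7.86-fold above LMPP-s (limma adjusted p = 3.53e-06). The step of 0.61 log2 between the CLP groups did not pass (SE 0.19, limma adjusted p = 0.342).

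The partners of this receptor did not all share its course. Il18rap, the signalling chain of the receptor and the next measured gene after Il18r1 in the RefSeq order, read 6.97, 6.88 and 7.17 in LMPP-s, 8.16, 8.13 and 8.19 in LMPP+s, 8.57 and 8.60 in Ly6D-CLPs, and 8.79 and 8.46 in Ly6D+CLPs. It was 2.22-fold higher in LMPP+s than in LMPP-s (log2 difference 1.15, limma adjusted p = 0.00172). Ly6D-CLPs and Ly6D+CLPs stood 1.58 and 1.62 log2 above LMPP-s. Against LMPP+s neither CLP group passed (limma adjusted p = 0.176 and 0.121). Il1rl2, the nearest measured gene on the other side, did not pass in any of the 6 comparisons (0.14 log2 lower in LMPP+s than in LMPP-s, limma adjusted p = 0.871). The ligand gene Il18 was highest in LMPP+s (6.43 ± 0.27, SD, n = 3) and 1.25 log2 lower in Ly6D+CLPs (5.18 ± 0.40, SD, n = 2; limma adjusted p = 0.0153, and 0.0544 and 0.153 without LMPP+s array 3 and Ly6D+CLPs array 2), with 0.76 between the LMPP groups not passing (limma adjusted p = 0.147).

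Il17rb, which encodes the IL-25 receptor chain used by type 2 ILCs, was higher in the CLPs. It read 5.30, 5.44 and 5.47 in LMPP-s, 5.84, 5.86 and 5.49 in LMPP+s, 6.45 and 6.21 in Ly6D-CLPs, and 6.48 and 6.32 in Ly6D+CLPs. Every CLP array lay above every LMPP array, and the CLP groups overlapped. Against LMPP-s the differences were 0.93 log2 in Ly6D-CLPs (SE 0.16, limma adjusted p = 0.00806) and 0.99 in Ly6D+CLPs (SE 0.16, limma adjusted p = 0.0035). The Ly6D-CLPs call ended without Ly6D-CLPs array 1 (limma adjusted p = 0.0594). Against LMPP+s it passed in Ly6D+CLPs (0.67 log2, limma adjusted p = 0.0471) and not in Ly6D-CLPs (0.60, limma adjusted p = 0.086). The first of these calls ended when any of the LMPP-s, LMPP+s or Ly6D+CLPs arrays was left out (limma adjusted p from 0.0601 to 0.249). Its co-receptor gene Il17ra, at group means from 8.72 to 9.03, and the ligand gene Il25, from 4.77 to 5.02, passed in none of the 6 comparisons, with lowest limma adjusted p of 0.25 and 0.68.

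Klrk1, which encodes the activating NK receptor NKG2D, moved the other way between the LMPP groups. It read 5.27, 4.96 and 4.62 in LMPP-s, 3.02, 3.22 and 3.58 in LMPP+s, 4.86 and 4.32 in Ly6D-CLPs, and 4.43 and 4.51 in Ly6D+CLPs. The 3 LMPP+s arrays lay under all others and under the limit, and the other groups lay near it, with overlap between Ly6D-CLPs and both LMPP-s and Ly6D+CLPs. It fell by 1.68 log2 from LMPP-s to LMPP+s (SE 0.21, limma adjusted p = 0.00238), a fold of at least 1.42. Against LMPP+s it was higher in Ly6D-CLPs, by a fold of at least 1.1 (fitted log2 difference 1.32, limma adjusted p = 0.0245), and in Ly6D+CLPs, by at least 1.02 (fitted 1.20, limma adjusted p = 0.0193), since LMPP+s lay under the limit. Both calls ended without LMPP+s array 1 or 2; the first also without Ly6D-CLPs array 1, and the second without either Ly6D+CLPs array (limma adjusted p from 0.0598 to 0.132). Against LMPP-s neither CLP group passed (-0.36 and -0.48 log2, limma adjusted p = 0.413 and 0.236).

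NKG2D signals through the adaptors DAP10 and DAP12, encoded by Hcst and Tyrobp, and neither dipped in LMPP+s alone. Hcst stood at 8.95 ± 0.22 (SD, n = 3) in LMPP-s and 8.97 ± 0.01 (n = 3) in LMPP+s, and fell by 1.29 log2 from LMPP+s to Ly6D+CLPs (limma adjusted p = 0.00253) and by 0.85 to Ly6D-CLPs (limma adjusted p = 0.0307). The latter call ended when any LMPP+s, Ly6D-CLPs or Ly6D+CLPs array was left out (limma adjusted p from 0.0503 to 0.119). Tyrobp fell by 0.82 log2 from LMPP-s (10.37 ± 0.09) to LMPP+s (9.55 ± 0.06, limma adjusted p = 0.00769) and stood at 9.41 and 9.44 in the CLP groups. The neighbours of Klrk1 in the RefSeq order took other courses. Klrd1, which encodes the NK receptor chain CD94, was highest in Ly6D+CLPs (7.46 ± 0.09), 0.97 log2 above LMPP-s (limma adjusted p = 0.008, and 0.0755 without Ly6D+CLPs array 1), and Klrc3 lay under the limit in all 4 groups.

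Tox, an HMG-box nuclear factor needed for ILC and NK cell development, rose early. It read 5.48, 6.07 and 6.16 in LMPP-s, 7.14, 7.05 and 6.97 in LMPP+s, 7.77 and 7.59 in Ly6D-CLPs, and 7.17 and 7.22 in Ly6D+CLPs. All arrays of the 3 CD127+ groups lay above LMPP-s, and no groups overlapped. LMPP+s exceeded LMPP-s 2.21-fold (log2 difference 1.15, SE 0.18, limma adjusted p = 0.00851). Ly6D-CLPs, the highest group, stood 1.77 log2 above LMPP-s (limma adjusted p = 0.000807) and Ly6D+CLPs 1.28 (limma adjusted p = 0.00233). From LMPP+s, neither the 0.62 log2 in Ly6D-CLPs (limma adjusted p = 0.128) nor the 0.14 in Ly6D+CLPs (limma adjusted p = 0.778) passed, and the CLP groups differed by 0.49 log2 (SE 0.22, limma adjusted p = 0.539).

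Ets1, a transcription factor required for NK cells and other lymphocytes, was highest in LMPP+s. It read 4.94, 5.12 and 5.2 in LMPP-s, 6.69, 6.30 and 6.04 in LMPP+s, 5.94 and 5.87 in Ly6D-CLPs, and 6.10 and 5.84 in Ly6D+CLPs. The LMPP-s arrays lay under all others, and Ly6D+CLPs overlapped with LMPP+s and with Ly6D-CLPs. LMPP+s exceeded LMPP-s 2.39-fold (log2 difference 1.26, SE 0.17, limma adjusted p = 0.00427). Ly6D-CLPs stood 0.82 log2 above LMPP-s (limma adjusted p = 0.0297) and Ly6D+CLPs 0.88 (limma adjusted p = 0.0148). The first of these calls ended without any 1 of the 5 arrays compared (limma adjusted p from 0.0511 to 0.116) and, with the brightest probe set, fell to 0.15 log2 (0.824), and the second without LMPP-s array 1 or either Ly6D+CLPs array (from 0.0509 to 0.131). The differences of CLPs from LMPP+s, -0.44 and -0.37 log2, did not pass (limma adjusted p = 0.266 and 0.336). Its paralog and neighbour Fli1 passed in none of the 6 comparisons, with group means from 8.91 to 9.15.

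Nfil3, a basic leucine zipper factor that acts at the start of the ILC and NK path, was highest in Ly6D-CLPs. It read 6.28, 6.47 and 6.14 in LMPP-s, 6.40, 6.37 and 6.46 in LMPP+s, 6.85 and 7.26 in Ly6D-CLPs, and 6.52 and 6.42 in Ly6D+CLPs. Both Ly6D-CLPs arrays lay above all others, and the other 3 groups overlapped. Ly6D-CLPs exceeded LMPP-s by 0.76 log2 (SE 0.17, limma adjusted p = 0.0205), a call that ended without LMPP-s array 1 or 3 or Ly6D-CLPs array 2 (limma adjusted p from 0.0624 to 0.14). The differences of 0.65 from LMPP+s (limma adjusted p = 0.0711) and 0.59 from Ly6D+CLPs (limma adjusted p = 0.351) did not pass, and the F test over the 4 groups missed the threshold (limma adjusted p = 0.0501).

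Zbtb16, Eomes and Tbx21 passed in none of the 6 comparisons. Zbtb16, the gene of PLZF and a mark of ILC precursors, rested near the limit at 4.21 ± 0.22 in LMPP-s and 4.36 ± 0.27 in LMPP+s (SD, n = 3 each), and at 4.65 ± 0.02 in Ly6D-CLPs and 4.76 ± 0.10 in Ly6D+CLPs (SD, n = 2 each). The 4 CLP arrays, from 4.63 to 4.84, lay above the 6 LMPP arrays, from 3.97 to 4.53, but with its brightest probe set alone Ly6D-CLPs stood at -0.74 log2 from LMPP+s and -0.51 from LMPP-s (limma adjusted p = 0.0829 and 0.171), and the largest difference, 0.56 log2 between Ly6D+CLPs and LMPP-s, had a limma adjusted p of 0.0869. Eomes lay under the limit on all 10 arrays, from 3.41 to 4.15, so no fold is given. Tbx21 lay between 4.11 and 5.0, with both extremes in Ly6D-CLPs, and its group means spanned 0.11 log2. Its brightest probe set was not level, at 6.94 in LMPP-s, 6.57 in LMPP+s, 5.57 in Ly6D-CLPs and 5.61 in Ly6D+CLPs. With that probe set alone Ly6D+CLPs stood at -1.34 log2 from LMPP-s, which did not pass (limma adjusted p = 0.0629). Of the 7 Tbx21 probe sets, 4 were higher and 3 lower in Ly6D+CLPs than in LMPP-s.

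Gzmc, one of a cluster of granzyme genes, was raised in both CLP groups. It read 3.17, 3.04 and 2.96 in LMPP-s, 3.24, 3.01 and 3.89 in LMPP+s, 4.81 and 4.79 in Ly6D-CLPs, and 5.03 and 5.53 in Ly6D+CLPs. All LMPP arrays lay under the limit and all CLP arrays above it. Against LMPP+s it was at least 1.27-fold higher in Ly6D-CLPs (log2 difference 1.42, SE 0.24, limma adjusted p = 0.0224) and at least 1.78-fold higher in Ly6D+CLPs (1.90, SE 0.24, limma adjusted p = 0.00253). The former call ended without LMPP+s array 1 or 2 or either Ly6D-CLPs array (limma adjusted p from 0.0622 to 0.0862). Against LMPP-s, also under the limit, the bounds are the same, with fitted log2 differences of 1.74 (limma adjusted p = 0.00237) and 2.22 (limma adjusted p = 0.000304). The neighbouring granzyme genes are close copies, and how their probe sets share signal was not tested. Gzmb, under the limit in LMPP-s, rose at least 1.41-fold to Ly6D+CLPs (fitted log2 difference 1.34, limma adjusted p = 0.0048, and 0.0588 without Ly6D+CLPs array 1). Gzmf, under the limit in all groups, was called higher in Ly6D-CLPs than in LMPP-s (limma adjusted p = 0.0167, and 0.0626 and 0.115 without LMPP-s array 1 and Ly6D-CLPs array 1), and no fold is given.

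Single probe sets showed how evenly each difference ran along a gene. Between LMPP+s and LMPP-s, 18 of 19 Il18r1 probe sets were higher, 14 of them by more than 1 log2. All 13 of Tox and all 12 of Ets1 were higher, 8 and 7 by more than 1 log2, and all 10 of Klrk1 were lower, 8 by more than 1 log2. From LMPP+s to Ly6D-CLPs, 16 of the 19 Il18r1 probe sets were higher, and the brightest on average was level, at 9.98 and 9.95. For Gzmc all 5 probe sets were higher in both CLP groups than in LMPP+s, although 2 of the 5 lay above the limit on average. Tbx21 split 3 higher and 4 lower between the LMPP groups, and Eomes 4 and 4. These counts carry no test, since probe sets of a gene share its RNA. When a gene's brightest probe set replaced the mean, 13 of the 22 calls of the 10 genes ended. Between the LMPP groups the differences were then 1.29 log2 for Tox (limma adjusted p = 0.13), 1.08 for Ets1 (0.188) and -1.61 for Klrk1 (0.188), and in Ly6D+CLPs against LMPP+s Il18r1 went to 0.65 (0.435). In the CLP groups against LMPP-s Il17rb went to 0.56 and 0.75 (0.354 and 0.203). With the median probe set 5 calls ended. Another 4 probe sets that name both Ets1 and Taok1 were left out.

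**Figure D3:**
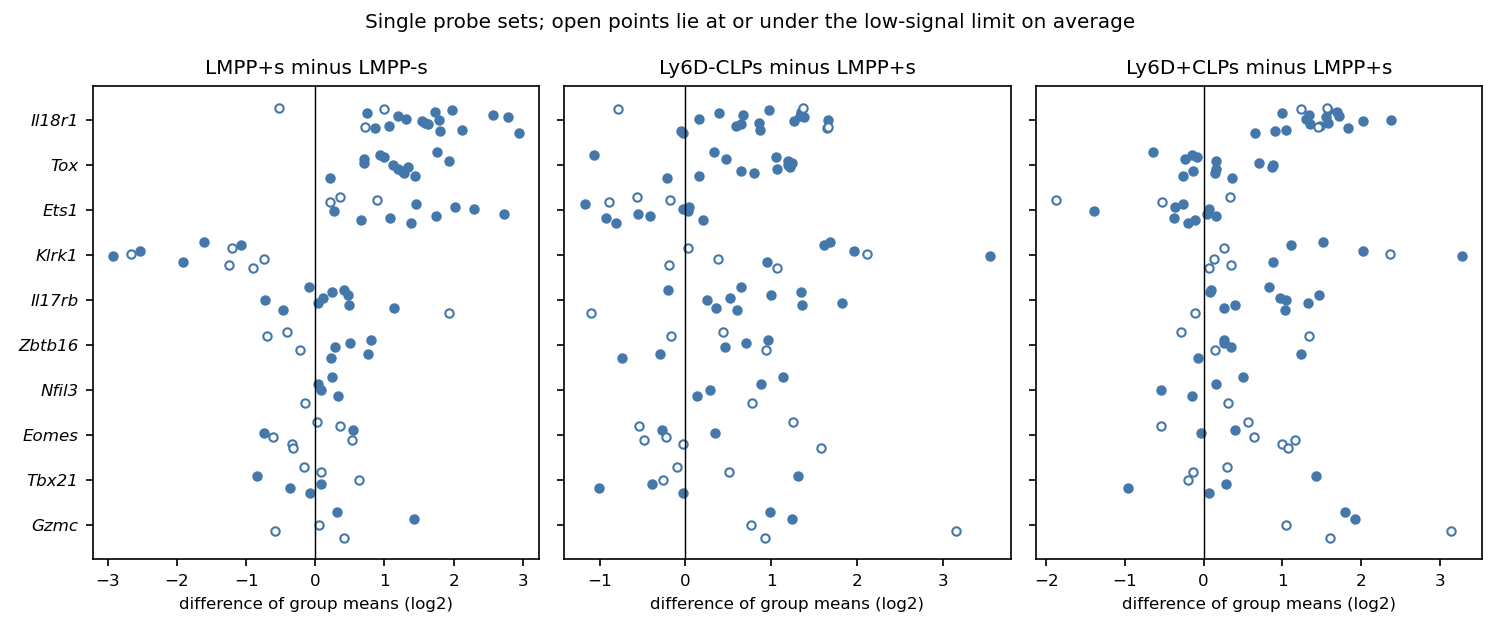
Difference of group means (log2, horizontal axis) for every single probe set of the 10 genes in 3 comparisons. Open points have a mean over all arrays at or under the limit of 4.45. All 13 Tox and 12 Ets1 points lie right of 0 and all 10 Klrk1 points left of it between LMPP+s and LMPP-s.

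Further genes of innate lymphoid and NK cells moved in part. Of 8 measured cytokine receptor genes, 3 rose in LMPP+s over LMPP-s, where 0.881% of all genes did, and 5 were not called. The 3 were Il7r, by which the groups were sorted, Il2rg and Il2rb. Il2rg, the common gamma chain, stood at 8.12 ± 0.07 in LMPP-s and 8.88 ± 0.22 in LMPP+s (SD, n = 3 each, limma adjusted p = 0.0245), and at 9.38 and 9.63 in the CLP groups. Its call between the LMPP groups ended without any LMPP-s array or without LMPP+s array 1 or 3 (limma adjusted p from 0.0731 to 0.115). Il2rb, the beta chain of the IL-2 and IL-15 receptors, climbed from 3.42 in LMPP-s to 4.72 in Ly6D-CLPs, at least 1.21-fold (limma adjusted p = 0.000966), and its call in LMPP+s, with both LMPP groups under the limit, ended without LMPP-s array 1 or 3 or LMPP+s array 2 or 3 (limma adjusted p from 0.0683 to 0.0924). The ligand gene Il15 took the opposite course and fell by 1.61 log2 from LMPP-s to Ly6D-CLPs (limma adjusted p = 0.00442) and by 1.86 to Ly6D+CLPs (limma adjusted p = 0.00112). Between LMPP-s and Ly6D+CLPs, Il15ra and Il12rb2 fell by 1.01 and 0.87 log2 (limma adjusted p = 0.00524 and 0.00941, the first 0.0518 without Ly6D+CLPs array 1).

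Of 14 measured transcription factor genes beyond the 10, 1 was called between the LMPP groups, where 1.47% of all genes were. Of the 14, 6 had an unadjusted p under 0.05. The called gene was Zeb2, which fell by 0.86 log2 in LMPP+s (limma adjusted p = 0.0184), a call that ended without LMPP-s array 1 or 2 or any LMPP+s array (from 0.0618 to 0.0942). Tcf7, the gene of TCF-1, was the one called in Ly6D-CLPs against LMPP+s, where 2.06% of all genes were. It read 5.12, 4.91 and 5.0 in LMPP-s, 5.38, 5.44 and 5.82 in LMPP+s, 6.61 and 6.48 in Ly6D-CLPs, and 5.50 and 5.10 in Ly6D+CLPs, with both Ly6D-CLPs arrays above all others. Ly6D-CLPs stood 1.54 log2 above LMPP-s (limma adjusted p = 0.00103) and 1.00 above LMPP+s (limma adjusted p = 0.0255), the latter call ending without LMPP+s array 1 or 2 or either Ly6D-CLPs array (from 0.0771 to 0.0911). Ikzf2 fell by 1.30 log2 from LMPP-s to Ly6D+CLPs (limma adjusted p = 0.00162). Id2, an inhibitor of E proteins that ILCs depend on, and Gata3 passed in none of the 6 comparisons, with lowest limma adjusted p of 0.0633 and 0.53.

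**Figure D4:**
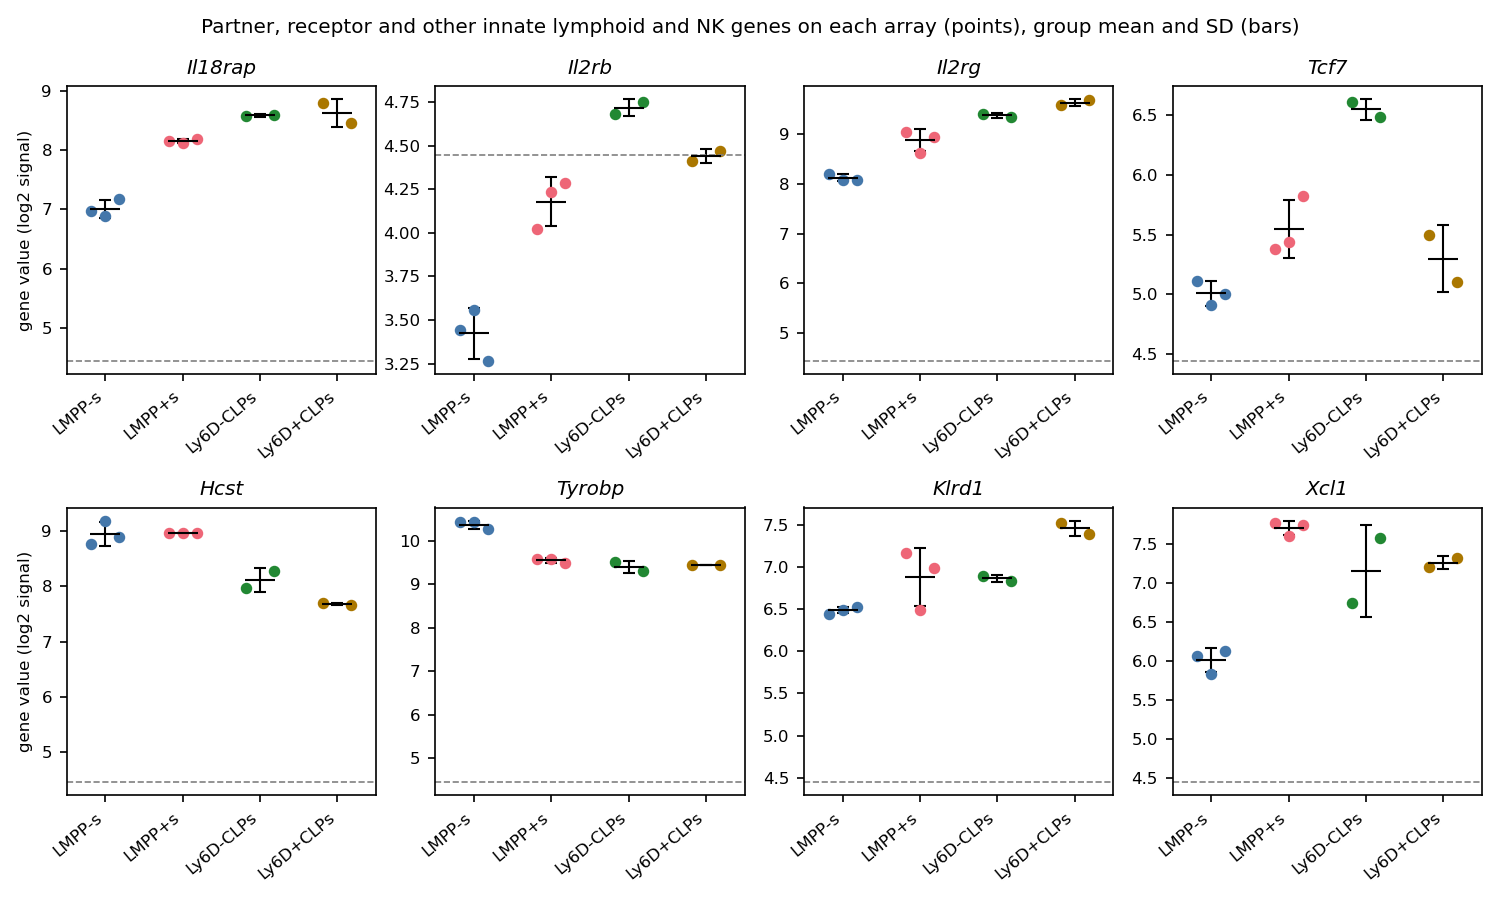
Values (log2 signal, vertical axes with separate ranges) of 8 further innate lymphoid and NK genes on each array of the 4 groups, points, with group means and SD as black bars and the low-signal limit of 4.45 as a dashed line. Il18rap, Il2rb and Il2rg are lowest in LMPP-s, Tcf7 is highest in Ly6D-CLPs, and Tyrobp is highest in LMPP-s.

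Among 12 measured NK receptor genes, 4 lay above the limit in at least 1 of the groups compared. Of the 12, 0 passed between the LMPP groups and in either CLP group against LMPP+s. Over all genes 1.47%, 2.06% and 4.03% were called there, in LMPP+s, Ly6D-CLPs and Ly6D+CLPs in turn. In the same order 2, 2 and 3 of the 12 had an unadjusted p under 0.05. Against LMPP-s, 2 were called higher in Ly6D+CLPs, where 3.93% of all genes were: Klrd1, and Klrc2, which lay under the limit in all groups. The Klrc2 call (limma adjusted p = 0.0337) ended without any LMPP-s array, LMPP+s array 3 or Ly6D+CLPs array 1 (from 0.051 to 0.28), and its difference of 0.85 log2 was 0.55 without the last. Of 17 cytotoxic and cytokine genes, 4 lay above the limit in at least 1 LMPP group. Of the 17, 1 rose in LMPP+s over LMPP-s, where 0.881% of all genes did. It was Xcl1, which encodes a chemokine of NK cells, at 6.01 ± 0.16 in LMPP-s and 7.71 ± 0.09 in LMPP+s (SD, n = 3 each), a 3.25-fold difference (limma adjusted p = 0.00138). Xcl1 also stood 1.14 and 1.25 log2 above LMPP-s in Ly6D-CLPs and Ly6D+CLPs (limma adjusted p = 0.0114 and 0.00472), the first 0.0657 without Ly6D-CLPs array 2. Prf1, the gene of perforin, was 0.66 log2 higher in Ly6D+CLPs than in LMPP-s (limma adjusted p = 0.0418), a call that ended without LMPP-s array 1 or 2, LMPP+s array 3 or either Ly6D+CLPs array (from 0.0586 to 0.23). Of 8 surface genes of ILC progenitors, 1 rose in LMPP+s over LMPP-s (Cxcr5, 0.69 log2, limma adjusted p = 0.038), where 0.881% of all genes did. Of the 8 differences 7 were positive, 5 had an unadjusted p under 0.05, and the median was 0.33 log2. The Cxcr5 call ended when any LMPP-s or LMPP+s array was left out (limma adjusted p from 0.0667 to 0.17), and also without either Ly6D+CLPs array. In Ly6D+CLPs against LMPP-s, Cxcr5 (1.65 log2), Cd7 (1.42) and Thy1 (1.18) rose and Itgb7 fell by 0.75. The Thy1 call ended without either Ly6D+CLPs array (limma adjusted p = 0.0524 and 0.0626) and that of Itgb7 without Ly6D+CLPs array 2 (0.115). In Ly6D-CLPs against LMPP-s, Itga4, the alpha chain of the integrin that marks ILC progenitors, was 0.79 log2 higher (limma adjusted p = 0.0161). The gene of its beta chain, Itgb7, was not called there, at 6.10 in Ly6D-CLPs and 6.25 in LMPP-s. Cxcr5 was 0.77 log2 higher (limma adjusted p = 0.0158). Both calls ended without LMPP-s array 1 (limma adjusted p = 0.0604 for Itga4 and 0.0601 for Cxcr5). They also ended without 1 Ly6D-CLPs array: array 2 for Itga4 (difference then 0.67 log2) and array 1 for Cxcr5 (0.60).

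Markers of mature cells were read on the same arrays. Of 7 mature NK markers Ncr1, Klrb1c, Gzma and Ifng lay at or under the limit in all 4 groups. The other 3, Gzmb, Klrd1 and Prf1, were called higher in Ly6D+CLPs than in LMPP-s, where 3.93% of all genes were, with the limits given above. Gzmb was also called higher in Ly6D-CLPs than in LMPP-s (limma adjusted p = 0.0409), where 2.93% of all genes were. That call ended without any 1 LMPP-s array (limma adjusted p from 0.0507 to 0.125) or LMPP+s array 3 (0.0592). It also ended without either Ly6D+CLPs array or either Ly6D-CLPs array. The difference was 1.04 log2 without Ly6D-CLPs array 1 and 0.79 without array 2. The mean of the list ran from 4.08 to 4.15 over LMPP-s arrays and from 4.14 to 4.39 over LMPP+s. Over Ly6D-CLPs it ran from 4.37 to 4.47 and over Ly6D+CLPs from 4.58 to 4.60. Of 8 mature T cell markers all but Cd5 lay at or under the limit in every group. Cd5 rose from 5.31 in LMPP-s to 6.62 in Ly6D-CLPs and 6.64 in Ly6D+CLPs (limma adjusted p = 0.00835 and 0.00482). Of all genes 2.93% and 3.93% were called higher there. Of 7 mature B cell markers Cd79a and Pax5 rose in Ly6D+CLPs against LMPP-s (limma adjusted p = 0.0013 and 0.00947), where 3.93% of all genes did. Ms4a1, Cr2 and Fcer2a lay under the limit in every group. The mean of the B list ran from 4.71 to 4.75 over Ly6D+CLPs arrays and from 4.04 to 4.27 over the others. Cd5 moves with the rises in both CLP groups. So does the mean of the NK list against LMPP-s, though over Ly6D-CLPs its range overlapped that of LMPP+s. The B list moves with the rises in Ly6D+CLPs. Their part in these rises was not tested. Of 6 markers of mature type 2 ILCs Il5, Klrg1 and Arg1 lay under the limit in every group. Gata3, Rora and Il13 lay above it in every group, at group means from 4.46 to 5.16. In no comparison was any of the 6 called, where from 0.0993% to 10.9% of all genes were. Of 10 mature granulocyte markers 8 were highest in LMPP+s and 2, Mmp8 and Cxcr2, in LMPP-s. Of the 10, 6 passed as higher in LMPP+s than in LMPP-s, where 0.881% of all genes did. In LMPP+s the mean of the 10 genes ran from 6.52 to 7.28 against 4.65 to 5.75 in LMPP-s, 4.91 to 5.11 in Ly6D-CLPs and 4.85 to 5.40 in Ly6D+CLPs. All 7 erythroid genes were highest in LMPP+s, with 3 passing as higher than in LMPP-s (0.881% of all genes). The mean of the 7 ran from 5.57 to 6.33 in LMPP+s and from 4.45 to 4.88 elsewhere. The granulocyte and erythroid markers move with the Klrk1 dip and with the rises in LMPP+s, and their part in those results was not tested. Of 5 sort markers, Il7r lay under the limit in LMPP-s alone, Ly6d was 5.45 log2 higher in Ly6D+CLPs than in Ly6D-CLPs and stood at 8.67 in LMPP+s, and Kit was lower in both CLP groups than in both LMPP groups. Flt3 passed in none of the 6 comparisons. Ly6a, the gene of Sca-1, did not follow the sort: it read 5.82 in LMPP-s, 7.02 in LMPP+s, 5.51 in Ly6D-CLPs and 6.30 in Ly6D+CLPs, with no comparison passing. Across genes, 2 arrays of one group had a Pearson r between 0.9725, for Ly6D-CLPs, and 0.9855.

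The genes most like each of the 6 that passed the F test were sought among 837 genes that passed it with group means at least 1 log2 apart, by Pearson r over the 10 arrays. For Il18r1 these were Ccdc135 (r = 0.995), Mctp2 (0.989) and the guanylate-binding protein gene Gbp9 (0.988). For Tox they were Slc35d3 (0.974), the myeloid receptor gene Cd33 (0.970) and Tmtc1 (0.964), and for Ets1 the interferon-induced gene Oas2 (0.932), Uaca (0.921) and Frmd6 (0.910). For Klrk1 they were the cathepsin gene Ctsh (0.930), Gria3 (0.890) and B3gnt6 (0.857). For Il17rb they were Cd97 (0.980), Trim25 (0.958) and the clock gene Per1 (0.958), and for Gzmc Nucb2 (0.964), Fbxo11 (0.962) and the B lineage and plasmacytoid factor gene Spib (0.960). Among the 10 genes themselves the lowest r was that of Ets1 with Klrk1 (-0.844). The points of these correlations are the arrays of 4 groups, so r mostly follows the group means.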

How the data were processed

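The deposited table holds 269751 probe sets on 10 arrays. Their range (0.204 to 14.8) is that of log2 signals, and the authors' values were taken as log2. Affymetrix Power Tools is the tool named in the submitters' processing notes; the sources used here give no summary method, normalization, log base or build. Array medians ran from 5.18 to 5.23, and the values were used without another normalization. Precision is limited by how few arrays there are.

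Probe sets with 1 symbol (233753) were averaged into 23152 genes. Another 5106 carried several symbols and 30892 none. A mean per group was fitted to all 10 arrays with limma 3.58.1 (R 4.3.3, default empirical Bayes), and 6 pairwise comparisons and an F test were each adjusted by Benjamini-Hochberg over all genes. The steps were tested on simulated data. Tables and figures were made with pandas 2.3.3 and matplotlib 3.10.9 in Python 3.11.15.

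The 10 genes, the pathway and marker lists and the naming rule were chosen with earlier results of these data known. The rule names the 10 genes, up to 4 called genes (otherwise the largest difference) per pathway list and comparison, the 3 most alike genes and the nearest measured neighbours; Il17ra, Il25, Id2 and Gata3 were added after their values were seen. From each list, only part of what the rule admits is given. RefSeq tables (GRCm38.p6) gave neighbours and start windows alone. Replicate numbers come from the titles. Deviations of same-numbered arrays from their group means did not correlate above 0.1 in every pair, so the numbers were not taken to pair the arrays.

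Settings varied one at a time were the scaling (quantile or median centring), the probe set used (median or brightest), leaving out dim genes, trend and robust settings, the compared arrays alone, a replicate block, and each array left out in turn.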

Additional observations from a re-analysis of the deposited data

How the results depend on the processing

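Of 60 differences of the 10 genes, 22 were called, 8 of them under all 18 alternatives: Il18r1 in LMPP+s and both CLP groups against LMPP-s, Tox in both CLP groups against LMPP-s, and Gzmc in both CLP groups against LMPP-s and in Ly6D+CLPs against LMPP+s. The other 14 lost the call under at least 1, and 4 uncalled differences gained one. Quantile normalization and median centring changed no count of the 10 genes by over 1.5 times. With the brightest probe set the count went from 4 to 1 between the LMPP groups, from 3 to 0 in Ly6D-CLPs and 4 to 1 in Ly6D+CLPs against LMPP+s, and from 5 to 3 in Ly6D+CLPs against LMPP-s. The median probe set gave 1 in Ly6D-CLPs against LMPP+s, the compared arrays alone 0, dim genes left out 5, and trend and robust settings 6. With a replicate block that count was 0 and that of Ly6D+CLPs against LMPP+s 2. The labels do not state whether same-numbered arrays were paired, and the main fit did not take them as paired. With 1 array left out the counts ran from 0 to 3 and from 2 to 4 in these comparisons. With the brightest probe set 5 of the called differences of the genes named changed sign: Il18r1 (-0.0246) and Nucb2 (-0.0851) in Ly6D-CLPs against LMPP+s, Gzmb (-0.0321) in Ly6D+CLPs and Gzmf (-0.51) in Ly6D-CLPs against LMPP-s, and Il1r1 (0.0552) in Ly6D+CLPs against LMPP+s. Of the 10 genes' 38 uncalled differences 10 changed sign there, those of Zbtb16 in Ly6D-CLPs against LMPP+s (-0.74) and LMPP-s (-0.51) among them. That setting rests on 1 probe set per gene, and the cause of the other changes was not tested. Counts over all genes ran from 88 to 581 between the LMPP groups (341 in the main setting), from 22 to 1398 in Ly6D-CLPs (476) and 194 to 1954 in Ly6D+CLPs (933) against LMPP+s, from 664 to 2551 (1643) and 1001 to 3511 (2517) against LMPP-s, from 1 to 78 between the CLP groups (23) and from 1042 to 3516 for the F test (2171). Low signal limits Eomes, Zbtb16, Tbx21, Klrk1 and Gzmc.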

Other observations

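Of 19 measured paralogs of the 10 genes, 1 rose from LMPP-s to LMPP+s, where 0.881% of all genes did, and the median difference of the 19 was 0.07 log2 (all genes, -0.01). It was Il1r2, the decoy receptor of IL-1, which lies in the same family as Il18r1, at 6.98, 6.64 and 6.84 in LMPP-s and 7.91, 7.46 and 8.0 in LMPP+s (log2 difference 0.97, limma adjusted p = 0.0142), a call that ended without LMPP-s array 2 or LMPP+s array 1 or 3 (from 0.0621 to 0.0774). In the CLP groups Il1r2 stood 1.42 and 1.63 log2 above LMPP-s (limma adjusted p = 0.00154 and 0.000349). Its signalling relative Il1r1 fell by 0.78 log2 from LMPP+s to Ly6D+CLPs (limma adjusted p = 0.018), a call that ended without LMPP+s array 1 or either Ly6D+CLPs array (from 0.0601 to 0.153). Hlf, a relative of Nfil3 known from stem cells, fell at least 2.96-fold from LMPP-s to Ly6D+CLPs, where it lay under the limit (limma adjusted p = 0.0009).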
